A study of Mus musculus with 9 samples.

Results

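Ribosome biogenesis genes of the nucleolus were examined in color-coded AML clones. The group holds 40 genes that were chosen by name from the 55401 genes of the deposited tables. All 40 were found, and all 40 passed the filter on low values in each of the 3 comparisons. RNA-Seq covered 9 libraries of H9M cells, a mouse AML model in which lineage-negative bone marrow cells of C57BL/6-Ly5.1 mice, whose leukocytes carry the CD45.1 marker, were transduced with a gammaretroviral vector for *Meis1* and *Hoxa9*. Every group also carried the same CRISPR-Cas9 knockout and a lentiviral FGB-D vector, which supplied a truncated EGFR and the color code of the clone. Single-cell-derived clones had been mixed and transplanted with helper bone marrow into lethally irradiated C57Bl6/J recipients, whose age was not given in the sources used here. Splenocytes were sorted by color code within a gate of cKit+ and CD11b dim cells. In the flow cytometry of these mice, graft-derived myeloid cells were taken as CD45.1+, EGFRt bright and CD11b+.

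Clone 33BC-D, clone 38BC-D and clone 43BC-D gave the 3 pre-malignant libraries, which all came from mouse #15, killed before leukemia. At the leukemic endpoint the same 3 clones gave the de novo expanded libraries, 33BC-D from mouse #17, 38BC-D from mouse #13 and 43BC-D from mouse #14. The stably expanded group held 3 libraries of clone 34BC-D, from mice #13, #14 and #17. The pre-malignant state and mouse #15 therefore cannot be told apart, and neither can stable expansion and clone 34BC-D. Labels tie each column of values to a group but not to a clone or a mouse, so libraries are numbered 1 to 3 within a group, and equal numbers do not pair libraries. The p-values below measure the spread between these 3 libraries per group.

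Ribosomes are built in the nucleolus, where RNA polymerase I transcribes the precursor of the large ribosomal RNAs. Small nucleolar ribonucleoproteins (snoRNPs) modify that precursor, the box C/D class by 2′-O-methylation and the box H/ACA class by pseudouridylation, while assembly factors fold and cut it into the small and the large subunit. Transcription factor MYC is a known activator of many of these genes, and growing leukemic blasts usually have prominent nucleoli. The 40 members were grouped by role into 7 genes of RNA polymerase I and early precursor transcription, 5 box C/D and 3 box H/ACA snoRNP genes, 8 small subunit factors and 17 large subunit factors.

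Reads on genes numbered 10379739 to 15551196 per library. Levels are given as normalized counts, the reads of a gene divided by a size factor of its library, a log2 fold change is a difference in mean log2(normalized count + 1), and a gene was called at a Benjamini-Hochberg adjusted p under 0.05. Gene coordinates are those of the deposited tables, on GRCm38.p6. Members took 0.483% to 0.725% of these reads, and the lowest count of any member in any library was 209 reads. The marker genes *Kit*, *Itgam* (CD11b) and *Ptprc* (CD45) and the vector genes *Hoxa9* and *Meis1* were expressed in all 9 libraries, where *Kit* spanned 1937 to 3979 normalized counts. The vector carried mouse cDNAs of *Hoxa9* and *Meis1*, so their counts may not separate vector from endogenous transcripts. Summed over 8 myeloid genes, normalized counts spanned 115918 to 133063 in the pre-malignant, 43847 to 287647 in the de novo expanded and 151671 to 189224 in the stably expanded libraries, and de novo expanded library 3 held the highest value. The 7 B cell genes summed to 2904 to 3524, 1049 to 2793 and 1189 to 1434 normalized counts in the same order of groups, and the 7 macrophage genes to 1189 to 2548, 730.5 to 3344 and 2388 to 3177. Erythroid genes (6 found) spanned 242 to 480.1, 28.9 to 181 and 20.1 to 308, and T cell genes (7) stayed between 16.3 and 60.5 in all 9 libraries. The 5 platelet genes summed to 30.5 to 41.6 (pre-malignant), 16.0 to 29.8 (de novo expanded) and 29.0 to 34.9 (stably expanded). Among them *Gp1bb* and *Ppbp* were at 0 in every library. The part of these cell types in the results below was not tested.

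Promoters were inspected to describe a feature that the choice of members did not use. RefSeq promoters of build GRCm38.p6, 250 bases before to 50 bases after the annotated start of transcription, matched 35 of the 40 members, and *Rrs1*, *Rrp12*, *Fbl*, *Bop1* and *Npm1* had no entry. The E-box CACGTG, which MYC and its partner MAX are known to bind and which reads the same on both strands, occurred in 6 of the 35 promoters (17.1%), those of *Ltv1*, *Nop2*, *Pes1*, *Tsr1*, *Utp20* and *Wdr43*. It occurred in 7.24% of all 27025 promoters of this length, in 10.5% of the 9291 promoters of genes tested, and in 23 of 115 promoters (20%) of other ribosome biogenesis genes. The 3 sequences shown are those of *Nop2*, *Pes1* and *Wdr43*, which of these 6 genes were selected by the rule for named members given with the processing. Their E-box is printed in capitals. *Nop2* encodes an rRNA cytosine methyltransferase of the large subunit, *Pes1* the Pescadillo subunit of the PeBoW complex, and *Wdr43* a factor that acts on the nascent precursor. They lie on GRCm38.p6 at chr6:125131633-125131932 (plus strand), chr11:3963725-3964024 (plus strand) and chr17:71615965-71616264 (plus strand).
Nop2: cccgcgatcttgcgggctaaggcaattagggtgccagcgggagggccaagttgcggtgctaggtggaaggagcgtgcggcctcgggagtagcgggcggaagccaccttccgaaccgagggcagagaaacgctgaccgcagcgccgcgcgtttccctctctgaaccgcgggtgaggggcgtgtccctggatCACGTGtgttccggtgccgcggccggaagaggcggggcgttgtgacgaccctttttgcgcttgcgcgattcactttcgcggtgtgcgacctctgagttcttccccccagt
Pes1: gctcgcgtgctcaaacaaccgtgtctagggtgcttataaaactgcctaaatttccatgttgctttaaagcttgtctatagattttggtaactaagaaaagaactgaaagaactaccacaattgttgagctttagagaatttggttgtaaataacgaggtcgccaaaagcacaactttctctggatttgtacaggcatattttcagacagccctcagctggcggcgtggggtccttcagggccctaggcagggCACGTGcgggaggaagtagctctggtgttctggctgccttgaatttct
Wdr43: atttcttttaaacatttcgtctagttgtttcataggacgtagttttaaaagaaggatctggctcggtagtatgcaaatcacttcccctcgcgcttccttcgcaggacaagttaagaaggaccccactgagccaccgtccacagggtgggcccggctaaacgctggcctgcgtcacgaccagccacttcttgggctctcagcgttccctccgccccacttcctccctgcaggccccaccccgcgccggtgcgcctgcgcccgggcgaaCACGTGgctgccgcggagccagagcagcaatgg
The E-box began at position -60 relative to the start site in *Nop2*, at position 3 in *Pes1* and at position 18 in *Wdr43*. These RefSeq start sites need not match the annotation used for counting. The *Wdr43* window lies wholly within the span of the counted gene, which begins at 71615895. A GC box (GGGCGG on either strand) occurred in 26 of 35 member promoters (74.3%), against 35.9% of all promoters and 64.5% of those of genes tested. The letters TATAAA (either strand) occurred in 3 of 35 (8.57%), the promoters of *Dkc1*, *Pes1* and *Ppan*, against 14.2% and 6.74%. A match describes the letters in this window and is not a binding site that was measured.

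Member levels differed widely. Mean normalized counts over the 9 libraries ranged from 292 for *Nip7* to 20063 for *Ncl*, with a median of 1118. Per kilobase of the annotated exonic length, *Npm1* was the highest with 2373 normalized counts, followed by *Ncl* with 1969 and *Pa2g4* with 1644. That length was 2665 bases for *Npm1*, 10188 for *Ncl* and 11955 for *Wdr12*. It need not equal the length of the expressed transcript, so the order of genes depends on the annotation. *Nhp2* (905), *Noc2l* (848), *Nolc1* (824) and *Ddx21* (804) came next, and *Wdr12* (71.4) and *Nip7* (93.4) were the lowest on that scale. *Ncl* encodes nucleolin, an abundant nucleolar RNA-binding protein, and *Npm1* encodes nucleophosmin, a nucleolar chaperone whose gene is frequently mutated in human AML. The highest library exceeded the lowest by 1.23-fold to 2.48-fold across members, with a median of 1.56-fold.

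Library by library, most members moved together. De novo expanded library 1 was the highest of all 9 libraries for 30 of the 40 members, and pre-malignant library 1 was the lowest for 22. Relative to the pre-malignant mean, the mean log2 level of the 40 members was 0.41, 0.30 and 0.05 in de novo expanded libraries 1, 2 and 3 and 0.04, 0.13 and 0.14 in the stably expanded libraries, where the pre-malignant libraries themselves lay at -0.09, 0.05 and 0.04. De novo expanded libraries 1 and 2 thus stood apart from the other 7 libraries, and library 3 of that group lay beside the highest pre-malignant library.

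**Figure D1:**
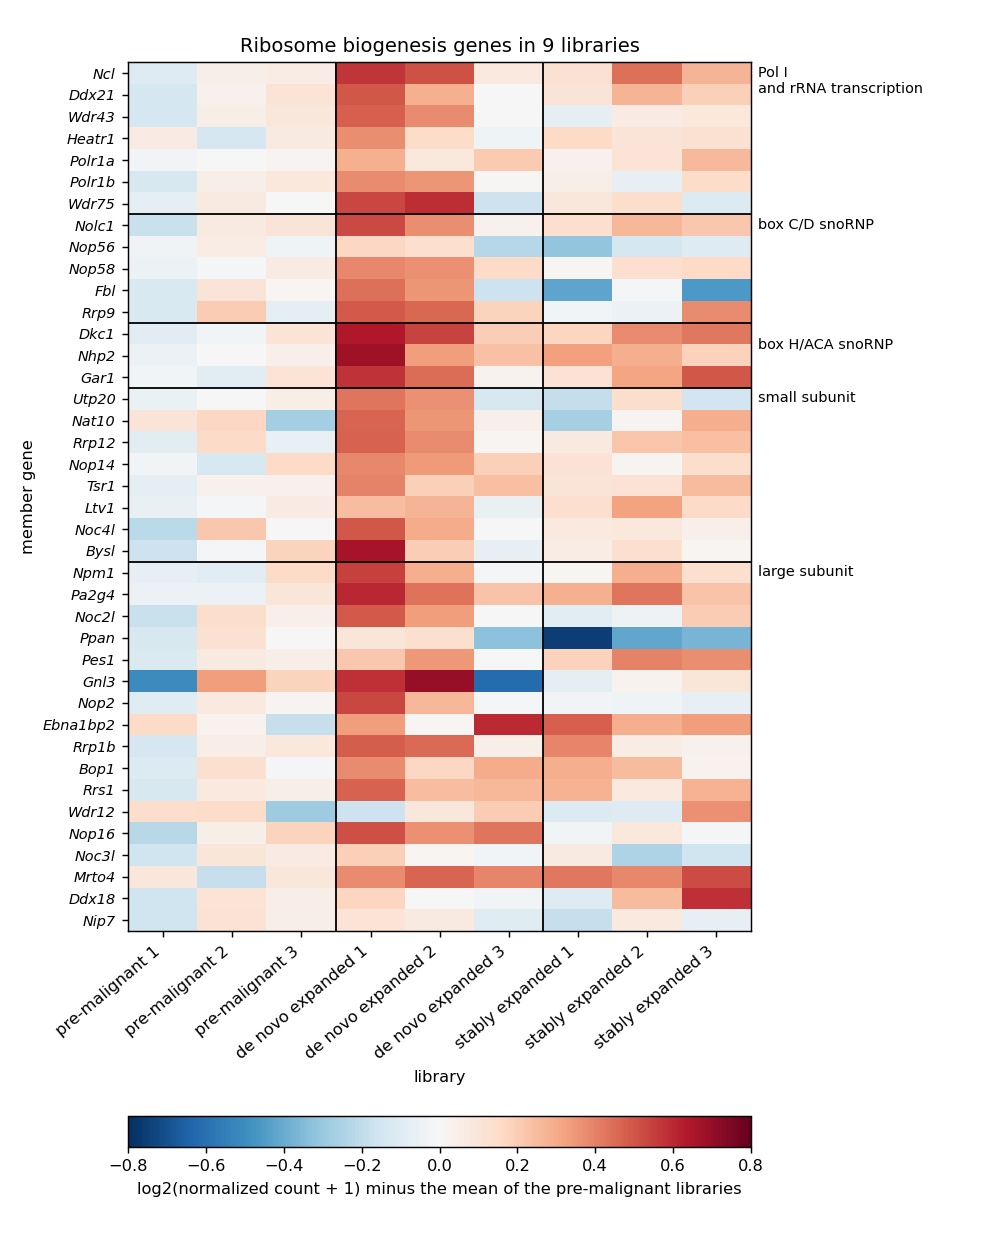
Level of each of the 40 members (vertical axis, grouped by role) in each of the 9 libraries (horizontal axis), as log2(normalized count + 1) minus the mean of the 3 pre-malignant libraries. Red columns are seen in de novo expanded libraries 1 and 2, where the mean over members was 0.41 and 0.30, and a paler column in de novo expanded library 3, where it was 0.05.

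The correlation of each member with the mean of the other 39, over the 9 libraries and as a description only, since the libraries share groups and scaling, had a median of 0.79 and was over 0.8 for 20 members. It was highest for *Wdr43* (0.96), *Nolc1* (0.96) and *Rrp12* (0.94), and lowest for *Wdr12* (-0.21), *Ebna1bp2* (0.00) and *Ddx18* (0.32). *Nolc1*, a snoRNP chaperone, had normalized counts of 2538, 3023 and 3093 (pre-malignant), 4153, 3725 and 2947 (de novo expanded) and 3159.7, 3456 and 3337 (stably expanded). *Rrp12*, an export factor of pre-ribosomes, had 884, 1049 and 904 (pre-malignant), 1309, 1224 and 952 (de novo expanded) and 991, 1098 and 1113 (stably expanded). In these members de novo expanded libraries 1 and 2 were the highest and pre-malignant library 1 the lowest of the 9.

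The comparison of de novo expanded with pre-malignant clones asks what accompanies the outgrowth of the same clones. Normalized counts were higher on average in the de novo expanded libraries for 39 of the 40 members, against 51% of all 14195 genes tested, and the median log2 fold change of the members was 0.30 against 0.01 for all genes. No member passed an adjusted p of 0.05 in limma (0 of 40, with 0% of all genes tested called). The quasi-likelihood test of edgeR and DESeq2 also called 0 members (0% and 0.951% of all genes). At an unadjusted p under 0.05, 13 members were higher and 0 lower (5.99% and 5.26% of all genes). In 12 members no library of a group lay in the range of the other on the scale of the normalized counts printed here, all of them higher in the de novo expanded group (9.36% of all genes were higher without overlap). Scaled over the 6 libraries of the comparison, *Rrp9* made it 13. In sorted populations such as these, a smaller share of cells that express a gene and less RNA per cell cannot be told apart.

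Of the 5 roles, box H/ACA genes had the largest median log2 fold change, 0.44 for *Dkc1*, *Nhp2* and *Gar1*, which encode the pseudouridine synthase dyskerin and subunits bound to it. *Dkc1* (ENSMUSG00000031403.14, chromosome X, 75095854 to 75109777) had normalized counts of 1250.2, 1309 and 1430.4 (pre-malignant), 2074, 1934 and 1523 (de novo expanded) and 1496, 1726 and 1778 (stably expanded). Every de novo expanded library lay above every pre-malignant library, and library 3 was the lowest of its group. The log2 fold change was 0.48 ± 0.13 (SE), or 1.4-fold, with an unadjusted p of 0.00816 and an adjusted p of 0.38 in limma. *Nhp2* (chromosome 11, 51619735 to 51623714) had 848, 879 and 902 (pre-malignant), 1404, 1104 and 1032 (de novo expanded) and 1098, 1072 and 997 (stably expanded), and its groups did not overlap either (0.44 ± 0.13 (SE), limma adjusted p = 0.384). *Gar1* had 299, 287 and 329 (pre-malignant), 456, 416 and 310.3 (de novo expanded) and 329, 378 and 429.8 (stably expanded), where de novo expanded library 3 was within the pre-malignant range.

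In the box C/D class, *Nop58* and *Nop56* encode the scaffold proteins, *Fbl* encodes the methyltransferase fibrillarin and *Rrp9* a protein of the U3 snoRNP. *Nop58* (chromosome 1, 59684971 to 59719044) had normalized counts of 1845, 1882 and 1996 (pre-malignant), 2486, 2462 and 2116 (de novo expanded) and 1927, 2095 and 2127 (stably expanded). It was 1.25-fold the pre-malignant level in the de novo expanded group (log2 fold change 0.32 ± 0.10 (SE), limma adjusted p = 0.384), and the groups did not overlap. *Rrp9* was 1.31-fold (limma adjusted p = 0.421), and de novo expanded library 3, at 438 normalized counts, lay just below pre-malignant library 2, at 446. *Nop56* and *Fbl* differed little, by 0.04 ± 0.12 (SE) and 0.23 ± 0.18 (SE) on the log2 scale, and de novo expanded library 3 was below all pre-malignant libraries in both. In all, 6 members hold 11 genes with a snoRNA name in their span, *Nop58* and *Nop56* among them. *Nop56* shares exonic bases with small RNA genes on its strand and with *Idh3b* on the opposite strand, so its count may not be its own alone.

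Among the 7 genes of RNA polymerase I and early transcription, all were higher in the de novo expanded group, by a log2 fold change of 0.18 (*Heatr1*) to 0.41 (*Ncl*). *Ncl* (ENSMUSG00000026234.12, chromosome 1, 86344719 to 86359400) had normalized counts of 15812, 17529.7 and 17719 (pre-malignant), 25286, 24182 and 17972 (de novo expanded) and 18530.4, 23054 and 20486 (stably expanded). The group means were 17020.1 ± 1050.5 and 22480 ± 3943 (SD, n = 3), the groups did not overlap, and the limma adjusted p was 0.409. De novo expanded library 3 exceeded the highest pre-malignant library by a narrow margin only. *Polr1a* and *Polr1b* encode the largest subunits of RNA polymerase I. *Polr1a* had 1832, 1864 and 1895 (pre-malignant), 2269, 1973 and 2150.2 (de novo expanded) and 1907, 2014 and 2231 (stably expanded), a log2 fold change of 0.21 ± 0.09 (SE) without overlap. *Polr1b* had 628, 711 and 728 (pre-malignant), 892, 879 and 692 (de novo expanded) and 711, 656 and 761 (stably expanded), and here de novo expanded library 3 lay within the pre-malignant range (0.27 ± 0.14 (SE), limma adjusted p = 0.504). *Wdr43*, whose promoter holds an E-box at position 18, was 1.24-fold, with overlap through de novo expanded library 3.

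Small subunit factors were higher in 8 of 8, by a log2 fold change of 0.17 (*Ltv1*) to 0.32 (*Nop14*), and *Nop14* and *Tsr1* did not overlap. *Nop14*, which joins the early small subunit precursor together with *Noc4l*, had normalized counts of 936, 870 and 1061 (pre-malignant), 1241, 1206 and 1087 (de novo expanded) and 1034, 967 and 1050.2 (stably expanded) (log2 fold change 0.32 ± 0.12 (SE), limma adjusted p = 0.413). It overlaps the antisense gene *Gm15522*, and the strand setting of the counting was not given in the sources used here. In all, 16 of the 40 members overlap exons on the opposite strand, among them *Dkc1* (with *Mpp1*) and *Nhp2* (with *Rmnd5b*). On their own strand 6 do, namely *Ncl*, *Nop58*, *Pa2g4*, *Nop56*, *Ppan* and *Gnl3*. The counts of these members may not be their own alone.

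Large subunit factors were higher in 16 of 17. *Pa2g4* (ENSMUSG00000025364.13, chromosome 10, 128557766 to 128565987), a growth-related protein found on precursors of the large subunit, had the smallest unadjusted p of all members. Its normalized counts were 3721, 3718 and 4121 (pre-malignant), 5845, 5201 and 4501 (de novo expanded) and 4687, 5189.5 and 4499 (stably expanded). The de novo expanded mean was 5182 ± 672 against 3854 ± 232 (SD, n = 3), the log2 fold change 0.44 ± 0.11 (SE) and the limma adjusted p 0.366, and no de novo expanded library lay in the pre-malignant range. *Nop16* had 439, 529 and 582 (pre-malignant), 734, 662 and 691 (de novo expanded) and 505, 545 and 508 (stably expanded). Here de novo expanded library 3 was not the lowest of its group, and all 3 libraries lay above the pre-malignant range (0.46 ± 0.14 (SE), limma adjusted p = 0.384).

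*Npm1* (chromosome 11, 33152287 to 33163206) had 5436, 5345 and 6328 (pre-malignant), 8298, 6963 and 5629 (de novo expanded) and 5748, 6954 and 6207 (stably expanded), so that the groups overlapped (log2 fold change 0.29 ± 0.15 (SE), limma adjusted p = 0.499). *Mrto4*, *Rrs1* and *Bop1* did not overlap, with log2 fold changes of 0.43, 0.35 and 0.30. *Pes1*, *Bop1* and *Wdr12* encode the PeBoW complex of the large subunit, and their log2 fold changes were 0.21 ± 0.12 (SE), 0.30 ± 0.11 (SE) and 0.06 ± 0.16 (SE). *Ppan* was the single member with a lower mean (-0.02 ± 0.14 (SE)), a value that was 0.13 when de novo expanded library 3 was left out and 0.04 when pre-malignant library 2 was.

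**Figure D2:**
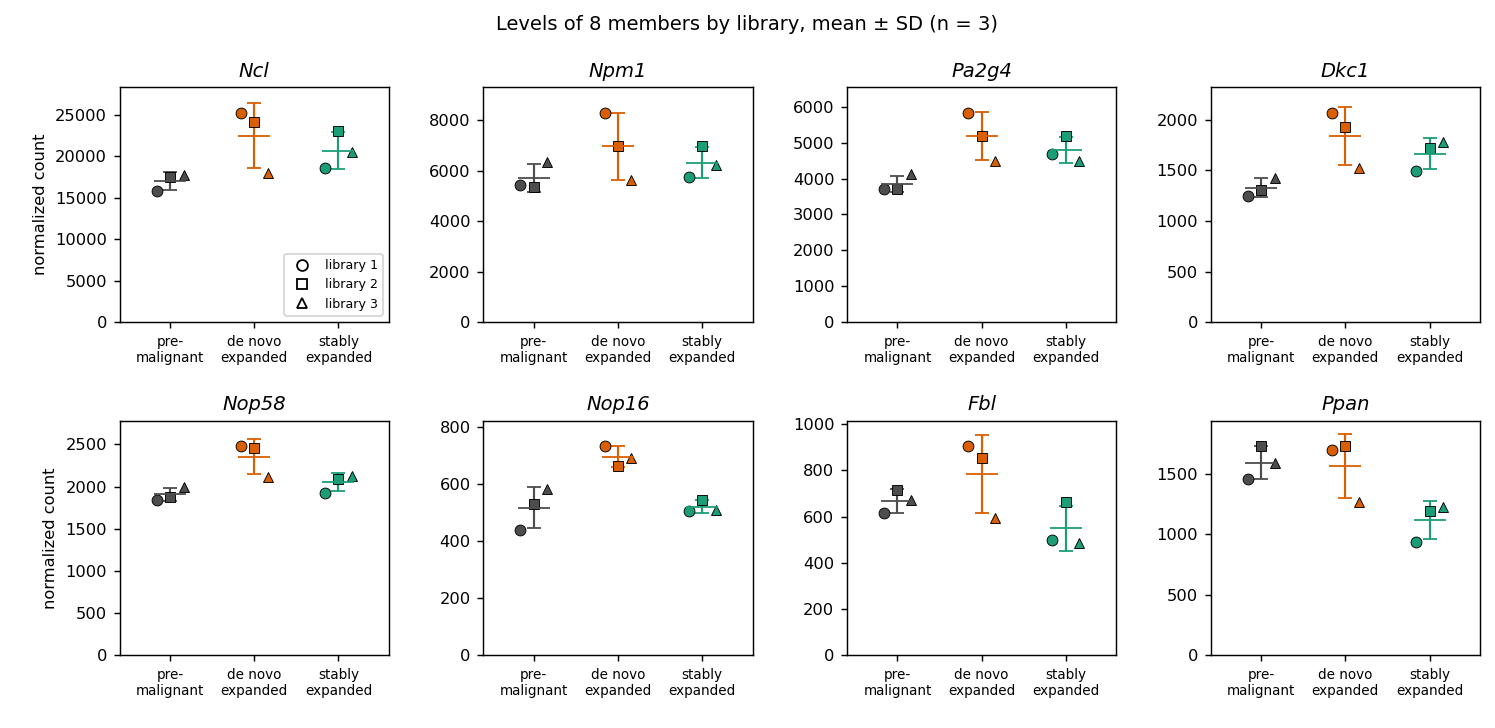
Normalized counts (vertical axes, from 0) of 8 members in the 3 groups, with each library as a point (circle, square and triangle for libraries 1, 2 and 3) and the mean ± SD of 3 libraries. In *Ncl*, *Pa2g4*, *Dkc1*, *Nop58* and *Nop16* the de novo expanded libraries lie above all pre-malignant ones, and in *Ppan* the stably expanded libraries lie below them, at 939 to 1226 against 1453 to 1727.

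The number of members that passed the test rested on de novo expanded library 3. It was the lowest of its group for 32 of 40 members and lay above all pre-malignant libraries for 14, whereas libraries 1 and 2 did so for 37 and 35. Without it, 10 members rose in limma at an adjusted p under 0.05 (25% of members, against 2.23% of the 14224 genes then tested that were called higher), 32 were higher at an unadjusted p under 0.05 (11.1% of all genes), and the median log2 fold change was 0.42. The 10 came from each role, with *Ncl*, *Wdr43* and *Wdr75* in early transcription, *Nolc1* and *Nop58* in box C/D, *Dkc1* and *Nhp2* in box H/ACA, *Utp20* in the small subunit, and *Pa2g4* and *Rrp1b* in the large subunit. *Dkc1* then rose by a log2 fold change of 0.61 ± 0.11 (SE, adjusted p = 0.0136) and *Ncl* by 0.56 ± 0.10 (adjusted p = 0.0126), while over the other alternatives the adjusted p spanned 0.169 to 0.795 for *Dkc1* and 0.301 to 0.795 for *Ncl*. With any other library left out, 0 members were called.

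Other genes moved with this split of the de novo expanded group. *Myc* had normalized counts of 2226, 2013 and 2374 in the pre-malignant, 3207, 2619.6 and 1922 in the de novo expanded and 2103, 2229 and 1806 in the stably expanded libraries. It was above the pre-malignant range in de novo expanded libraries 1 and 2 and below it in library 3, and it was not called in any comparison (log2 fold change 0.22 ± 0.18 (SE), limma adjusted p = 0.671 between de novo expanded and pre-malignant). The 11 genes of the MYC network, *Myc* among them, did not show this split as a list. Their mean log2 levels relative to the pre-malignant mean were -0.35, -0.21 and -0.36 for the 3 de novo expanded libraries. That mean includes *Mycn*, at 0 in these libraries, and *Mycl*, at 5.7, 16.6 and 2.7 normalized counts, and does not describe single genes. *Mxd1* (398, 467 and 562), *Mxd4* (751, 1026 and 1385) and *Mxi1* (1050, 1198 and 1522) were lower in libraries 1 and 2 than in 3. *Mxd3* (345, 242 and 147) was higher there. *Mxd1*, an antagonist of MYC, was the gene of the list with an unadjusted p under 0.05 (log2 fold change -0.48 ± 0.17 (SE), limma adjusted p = 0.406). Among 20 proliferation genes, the mean log2 level relative to the pre-malignant mean was 0.33, 0.28 and 0.06 in the de novo expanded and 0.40, 0.32 and 0.06 in the stably expanded libraries. Stably expanded libraries 1 and 2 were therefore as high as de novo expanded libraries 1 and 2 in proliferation genes, while their member means were 0.04 and 0.13 against 0.41 and 0.30. The 8 myeloid genes include genes of granule proteins such as *Mpo* (myeloperoxidase). As a list they were low in de novo expanded libraries 1 and 2 and high in library 3. Their mean log2 levels relative to the pre-malignant mean were -1.16, -0.80 and 1.01 (de novo expanded) and 0.94, 0.50 and 0.66 (stably expanded). Of these genes *Ctsg* was not low in de novo expanded libraries 1 and 2. It had 12513 and 12684 normalized counts there, against 7477, 12677 and 12311 in the pre-malignant libraries. *Kit* and both vector genes were also lower in de novo expanded libraries 1 and 2 than in library 3. *Hoxa9* had normalized counts of 7855, 5126 and 4311 (pre-malignant), 4720, 6013 and 9485 (de novo expanded) and 7089, 6758 and 6315 (stably expanded). *Meis1* had 12600, 7949 and 7314, then 7822, 10028 and 15174, then 11786, 11714 and 11018 in the same order. *Kit* had 3979, 3746 and 3355, then 1937, 3046 and 3779, then 3105, 3091 and 2792. Pre-malignant library 1 was the highest of its group for these 3 genes. Whether the expression of *Hoxa9* and *Meis1*, from the vector or not, proliferation or myeloid maturation has a part in the member levels was not tested.

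**Figure D3:**
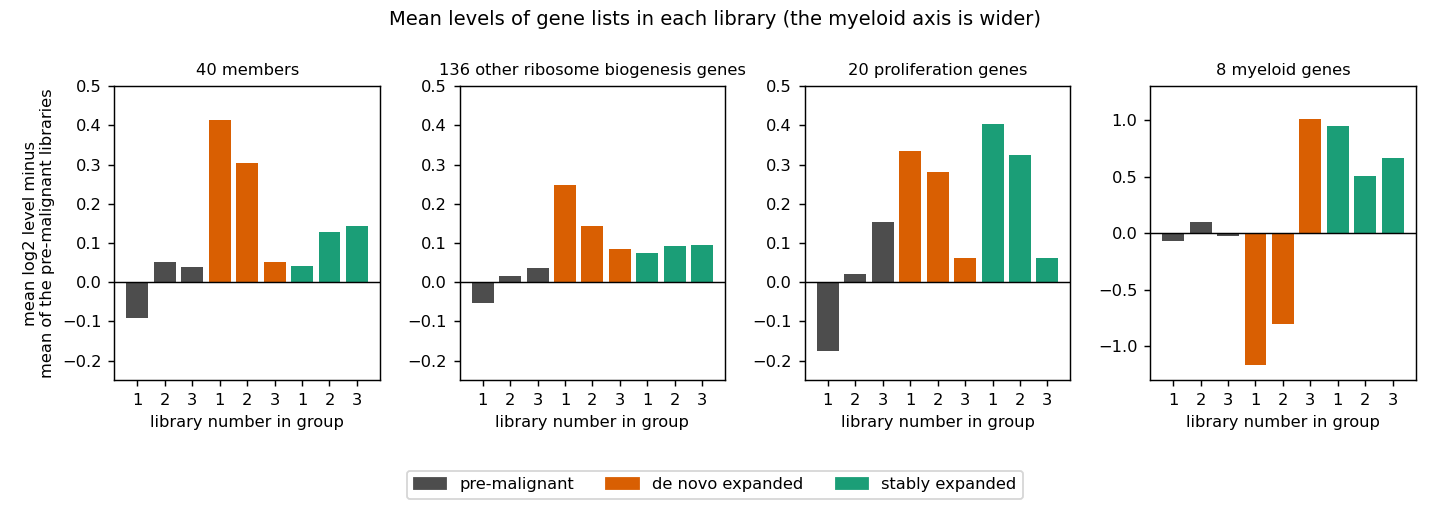
Mean log2 level (vertical axes) of 4 gene lists in each of the 9 libraries (horizontal axes, numbered within each group), minus the mean of the pre-malignant libraries. Members reached 0.41 and 0.30 in de novo expanded libraries 1 and 2, in which the myeloid genes were at -1.16 and -0.80.

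Stably expanded clone 34BC-D was compared with the same 3 pre-malignant libraries. The mean was higher for 33 of 40 members (50.5% of 13968 genes tested), and the median log2 fold change was 0.12 against 0.00 for all genes. Under quantile normalization the median was 0.05 and 26 of 40 were higher, and 26 were also higher without pre-malignant library 1 or without stably expanded library 3. Of the 40 members, 1 fell and 0 rose in limma, where 3.61% of all genes were called lower and 4.34% higher (7.95% in either direction), and no member passed with a 2-fold limit (2.75% of all genes did). At an unadjusted p under 0.05, 7 members were higher (17.5% against 13.2% of all genes) and 1 was lower (12.3% of all genes). The groups did not overlap in 13 members that were higher (16% of all genes) and in 2 that were lower (14.6% of all genes), and scaling over the 6 libraries added *Rrs1* to the 13.

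*Ppan* (ENSMUSG00000004100.12, chromosome 9, 20888175 to 20892178), which encodes a large subunit assembly factor, was the member that fell. It had normalized counts of 1453, 1727 and 1592 (pre-malignant), 1697, 1731 and 1263 (de novo expanded) and 939, 1191 and 1226 (stably expanded). All 3 stably expanded libraries lay below every pre-malignant library, at a mean of 1119 ± 156 against 1591 ± 137 (SD, n = 3). The log2 fold change was -0.51 ± 0.12 (SE), or 0.701-fold, with an adjusted p of 0.0318 in limma. The call was lost in 1 limma fit of all 9 libraries (adjusted p = 0.133), in which 0.0573% of all genes were called. It was also lost without pre-malignant library 1, 2 or 3 or stably expanded library 1 (limma adjusted p = 0.055, 0.128, 0.0803 and 0.0891). In those fits 2.68% to 3.95% of all genes were called, against 7.95% with all 6 libraries. Over all alternatives the adjusted p of *Ppan* spanned 0.00359 to 0.133, all with a lower mean. *Ppan* shares exonic bases with the small genes *Gm23008* and *Gm24067* on its strand.

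*Fbl* and *Nop56*, both of the box C/D class, were next in size among the members with a lower mean. *Fbl* (chromosome 7, 28169710 to 28179269) had 614, 717 and 674 (pre-malignant), 907, 853 and 593 (de novo expanded) and 499, 663 and 485 (stably expanded). Stably expanded libraries 1 and 3 were below the pre-malignant range and library 2 was within it, with a log2 fold change of -0.29 ± 0.14 (SE) (limma adjusted p = 0.231). *Nop56* (chromosome 2, 130274430 to 130279313) had 2307, 2449 and 2290.1 (pre-malignant), 2635, 2580.3 and 2002 (de novo expanded) and 1885, 2133 and 2185 (stably expanded), without overlap and with a log2 fold change of -0.19 ± 0.09 (SE) (limma adjusted p = 0.245).

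In the other direction, *Mrto4*, a paralog of the ribosomal stalk protein that occupies its place during assembly, had the largest log2 fold change (0.44 ± 0.14 (SE), limma adjusted p = 0.0701), with 375, 311 and 376 (pre-malignant), 458, 488 and 463 (de novo expanded) and 472, 461 and 506 (stably expanded). *Pa2g4* was 1.24-fold the pre-malignant level (0.31 ± 0.09 (SE), limma adjusted p = 0.0604). DESeq2 called it higher (adjusted p = 0.0387, the lowest of its alternatives, which reached 0.196), with 12.3% of all genes called in either direction. *Ebna1bp2* (0.37 ± 0.11 (SE)), *Pes1* (0.32 ± 0.10 (SE)), *Dkc1* (0.32 ± 0.10 (SE)), *Nhp2* (0.27 ± 0.10 (SE)) and *Ncl* (0.28 ± 0.10 (SE)) also had non-overlapping groups, at limma adjusted p of 0.0742, 0.0851, 0.0805, 0.121 and 0.126. By role, the median log2 fold change was 0.31 for box H/ACA, 0.14 for the large subunit, 0.13 for early transcription, 0.10 for box C/D and 0.08 for the small subunit.

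**Figure D4:**
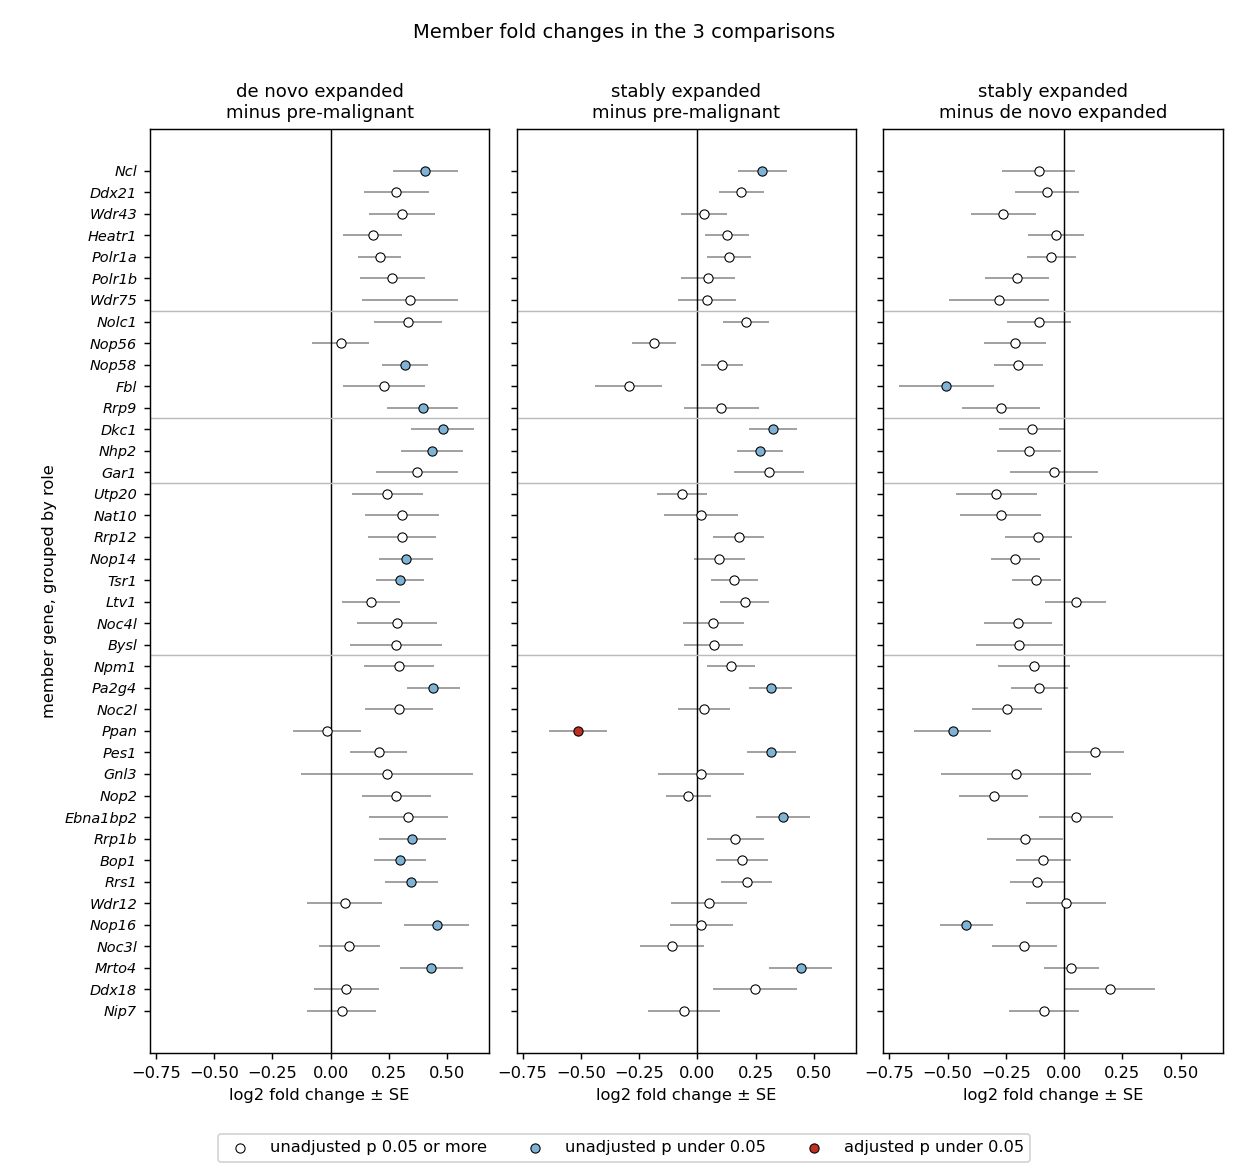
Log2 fold change ± SE (horizontal axes, limma, 3 libraries per group) of each member (vertical axis, grouped by role) in the 3 comparisons, of which both with the pre-malignant group share its 3 libraries. Blue points have an unadjusted p under 0.05 and the red point, *Ppan* at -0.51, an adjusted p under 0.05.

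Stably expanded against de novo expanded clones asks how both leukemic states differ. The mean was lower in the stably expanded libraries for 34 of 40 members (50.4% of 13758 genes tested), with a median log2 fold change of -0.14 against 0.00 for all genes. No member was called by limma (0 of 40, with 0.00727% of all genes called), edgeR (0.00727%) or DESeq2 (0.254%). At an unadjusted p under 0.05, 3 were lower (2.11% of all genes), and 4 were lower without overlap (4.97% of all genes). *Nop16* differed by -0.42 ± 0.11 (SE) on the log2 scale, and its libraries did not overlap (unadjusted p = 0.0067, limma adjusted p = 0.891). Its stably expanded mean was 519 ± 22.6 normalized counts, beside 517 ± 72.1 in the pre-malignant group (SD, n = 3). *Ppan* (-0.48 ± 0.17 (SE)), *Nop2* (-0.30 ± 0.15 (SE)) and *Nop14* (-0.21 ± 0.10 (SE)) were the other members without overlap. *Nop2* had normalized counts of 1072, 1209.6 and 1164 (pre-malignant), 1663, 1379 and 1136 (de novo expanded) and 1131, 1120.2 and 1095 (stably expanded), and its 3 stably expanded libraries lay close together (SD 18.7). *Fbl* had a log2 fold change of -0.51 ± 0.20 (SE) with overlap (limma adjusted p = 0.891). Without de novo expanded library 3, 3 members fell (*Gnl3*, *Ppan* and *Fbl*, with log2 fold changes of -0.62, -0.62 and -0.69 and limma adjusted p of 0.0138, 0.0287 and 0.037), where 2.05% of 13756 genes were called lower, 18 members were lower at an unadjusted p under 0.05 (8.83% of all genes), and the median of the members was -0.26. Without de novo expanded library 1 that median was -0.05. With any other library left out, 0 members were called.

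*Gnl3*, which encodes nucleostemin, a nucleolar GTPase of proliferating cells, had the widest span, with normalized counts of 813, 1459 and 1311 (pre-malignant), 1737, 1877 and 757 (de novo expanded) and 1098, 1179.8 and 1239.6 (stably expanded). Pre-malignant library 1 and de novo expanded library 3 were low and de novo expanded libraries 1 and 2 high, while the stably expanded libraries lay between. *Gnl3* hosts *Snord19* and *Snord69* and shares exonic bases with both. Some members departed from the common pattern. *Ebna1bp2*, a large subunit factor, had 1119, 1027 and 885 (pre-malignant), 1269.5, 1013 and 1519.7 (de novo expanded) and 1399, 1228 and 1268 (stably expanded), and here de novo expanded library 3 was the highest of all 9. *Wdr12* had 912, 916 and 681 (pre-malignant), 738, 880.4 and 953 (de novo expanded) and 766, 769 and 1069 (stably expanded) and *Ddx18*, an RNA helicase of the large subunit, 311, 376 and 361 (pre-malignant), 392, 348 and 343 (de novo expanded) and 324, 416 and 522 (stably expanded). In both genes stably expanded library 3 was the highest of the 9, and log2 fold changes between groups stayed between 0.01 and 0.25.

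A further 136 ribosome biogenesis genes that are not members, from the RNA polymerase I machinery, subunit assembly, snoRNP assembly and the RNA exosome, were read from the same fits. Between de novo expanded and pre-malignant clones 114 of 136 were higher (51% of all genes). Limma, edgeR and DESeq2 called 0 (0%, 0% and 0.951% of all genes). At an unadjusted p under 0.05 in limma, 23 were higher and 0 lower (5.99% and 5.26% of all genes). The median log2 fold change of these 136 genes was 0.18, beside 0.30 for the members. In the stably expanded clone 89 were higher than in the pre-malignant clones (50.5% of all genes), at a median of 0.09. Of the 136, 1 rose and 2 fell in limma and in edgeR (4.34% and 3.61% of all genes in limma, and 7.69% in either direction in edgeR). DESeq2 called 4 higher and 2 lower (12.3% of all genes in either direction), the additional genes being *Mphosph6*, *Tma16* and *Utp6*. *Cd3eap*, a subunit of RNA polymerase I, rose from 412 ± 17.95 to 559 ± 13.1 normalized counts (SD, n = 3, limma adjusted p = 0.0452), while *Taf1d*, of the polymerase I promoter factor SL1, fell to 0.687-fold (adjusted p = 0.0218) and *Urb1*, of the large subunit, to 0.746-fold (adjusted p = 0.0337). These calls were not examined in fits without a single library or in 1 fit of all 9 libraries. In the latter 0.0573% of all genes were called. Between stably and de novo expanded clones 100 of the 136 were lower (50.4% of all genes), at a median of -0.07. Limma, edgeR and DESeq2 called 0 (0.00727%, 0.00727% and 0.254% of all genes), and 3 were lower at an unadjusted p under 0.05 in limma (2.11% of all genes).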

How the data were processed

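RNA-Seq of 9 libraries, 3 per group, was read from 3 deposited tables, each with the 6 libraries of 1 comparison. Its values are a signal that the authors deposited as normalized counts, namely reads per gene scaled by DESeq2 size factors over the 6 libraries. The authors trimmed reads with Trim Galore 0.6.4, aligned them with STAR 2.6.1d and counted them with featureCounts 1.6.4 on GRCm38.p6 with GENCODE annotation, in the nf-core/rnaseq workflow. Libraries were made from sorted cells with a stranded total RNA kit and many cycles of PCR. Columns with the authors' own fold changes and p-values were not used. The gene of the shared knockout is not reported here. Every other column of per-library values was mapped to a group (0 were left out).

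Whole reads were recovered from the steps of the normalized counts, with at least 99.9956% of nonzero values whole to within 0.05 reads, and were equal in both tables that hold a library. Levels are these reads divided by median-of-ratios size factors over all 9 libraries (normalized counts), and ranges of groups were compared on this scale. Differences were tested two-sided within each table with limma 3.58.1 (empirical Bayes with trend, R 4.3.3) on log2 normalized counts with a pseudocount of 1, keeping genes whose mean was at least 10, with Benjamini-Hochberg adjustment over all genes tested. Fold changes are on that scale. An adjusted p under 0.05 made a call. The fit was tested on simulated data with planted changes larger than those of any member. That test does not show whether changes of the size seen in members would be called.

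Alternatives were pseudocounts of 0.1 and 5, no filter or a mean of at least 50, quantile normalization, edgeR 4.0.16 (quasi-likelihood, TMM) and DESeq2 1.42.0 on the recovered reads, 1 fit of all 9 libraries, a 2-fold limit, and fits without each single library. The members and lists were chosen with earlier results of these data known. Named members were those called, or else the 5 with the smallest p, in each comparison, the 3 with the highest level, the 3 most and the 3 least correlated with the rest, the 3 with the largest fall in each comparison and the best known of each role. Other members were named after their values were seen. Levels and figures came from Python 3.11.15 (pandas 2.3.3, numpy 2.4.6, matplotlib 3.10.9).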

Additional observations from a re-analysis of the deposited data

How the results depend on the processing

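The number of called members changed under the following alternatives, and the cause was not tested. Leaving out 1 library gave 0 to 10 called members between de novo expanded and pre-malignant clones and 0 to 3 between both expanded groups. The counts of 10 and 3 came without de novo expanded library 3, where 4.35% and 6.69% of all genes were called. Between stably expanded and pre-malignant clones it gave 0 to 1 (2.68% to 7.77% of all genes). There, DESeq2 called 2 members (*Pa2g4* higher and *Ppan* lower), with 12.3% of all genes called. In the same comparison 1 fit of all 9 libraries and the 2-fold limit called 0, with 0.0573% and 2.75% of all genes called. *Ppan* between de novo expanded and pre-malignant clones had a log2 fold change of -0.02, and leaving out 1 library gave -0.10 to 0.13, with a positive value without de novo expanded library 3 (0.13) or pre-malignant library 2 (0.04). The median log2 fold change of the members kept its sign under every alternative, at 0.21 to 0.42, 0.05 to 0.16 and -0.26 to -0.05 in the 3 comparisons, where the last range ran from the value without de novo expanded library 3 to that without library 1. Between stably expanded and pre-malignant clones 26 of 40 members were higher under quantile normalization, without pre-malignant library 1 and without stably expanded library 3. *Pa2g4* there had adjusted p of 0.0387 (DESeq2) to 0.196 over its alternatives. No paired analysis was made, because the columns carry no label that ties them to a clone or a mouse. De novo expanded library 3 and pre-malignant library 1 were the lowest of their groups for 32 and 30 of the 40 members. Whether both hold the same clone was not tested. With 3 libraries per group, an exact permutation test cannot give a two-sided p below 0.1.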
